A study of Mus musculus with 8 samples.

Results

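Nfe2l2, the gene of the transcription factor NRF2, and 9 of its best-known target genes (Nqo1, Hmox1, Gclc, Gclm, Srxn1, Txnrd1, Pir, Osgin1 and Ephx1) were followed in mouse liver under a high-fat diet and arsenite. The members were taken by gene symbol, and each of the 10 symbols was carried by 1 transcript cluster, the set of probes read as a gene, so that 10 of 35556 clusters and 10 of 19938 genes were members. All 10 lay among the 60% of genes with the highest mean signal, which were the 11963 genes tested. Livers came from male C57Bl/6J mice in 4 groups of 10, for which the labels give no age. The HFD+As group ate a high-fat diet (42% of calories from fat) and drank deionized water that held sodium arsenite (3 mg of inorganic arsenic in each litre). The HFD group had the same diet and plain deionized water. The LFD+As group ate a low-fat diet (13% of calories from fat) with the same arsenite, and the LFD group ate it with plain water. The protocols give 10 weeks of exposure and the source label 90 days. RNA of 5 mice was pooled for each array, which left 2 arrays (replicates 1 and 2) per group, and every spread and p-value below is between such pools and not between mice.

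NRF2 is held in the cytoplasm by KEAP1, which presents it to a CUL3 ubiquitin ligase for destruction. Electrophiles and arsenite modify cysteines of KEAP1, NRF2 then accumulates, pairs with a small MAF protein and binds antioxidant response elements in its target genes, so that its activity is set largely at the protein level. In the liver its targets make glutathione, repair oxidized thiols, reduce quinones, break down heme and detoxify foreign compounds, and arsenic is a textbook inducer of the pathway.

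The promoter sequences of the members on which the results turn are shown with letters that match the antioxidant response element or the AP-1 site. These are matches of letters only, and binding to them was not tested. The core of the antioxidant response element, TGACNNNGC, and the form TGAGTCAGC were searched on both strands in windows from 250 bases before to 50 bases after each RefSeq start site (build GRCm38.p6), together with the AP-1 site TGAGTCA, which lies within TGAGTCAGC and can overlap the core. Entries existed for 8 members, with 10 windows because Txnrd1 had 3, and for Hmox1 and Gclc none was held. A core or TGAGTCAGC was found in 6 of the 10 windows, those of Nfe2l2, Gclm, Srxn1, Pir and Osgin1 and 1 of the 3 of Txnrd1. Over 32841 mouse windows of the same length, 12.4% held the core, 0.414% TGAGTCAGC, 12.7% either of them and 5.2% TGAGTCA. The 250 bases before the start are given 5′ to 3′ on the gene's strand, with every match to the 3 motifs in capitals, for Nqo1 (chr8:107403206-107403455, minus strand), Srxn1 (chr2:152105274-152105523, plus strand), Pir (chrX:164269181-164269430, plus strand), Osgin1 (chr8:119436897-119437146, plus strand) and Nfe2l2 (chr2:75704664-75704913, minus strand).
Nqo1: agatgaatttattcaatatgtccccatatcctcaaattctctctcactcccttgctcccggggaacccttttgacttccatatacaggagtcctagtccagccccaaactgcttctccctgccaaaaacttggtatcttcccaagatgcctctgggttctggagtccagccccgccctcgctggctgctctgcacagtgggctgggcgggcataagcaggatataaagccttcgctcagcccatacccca
Srxn1: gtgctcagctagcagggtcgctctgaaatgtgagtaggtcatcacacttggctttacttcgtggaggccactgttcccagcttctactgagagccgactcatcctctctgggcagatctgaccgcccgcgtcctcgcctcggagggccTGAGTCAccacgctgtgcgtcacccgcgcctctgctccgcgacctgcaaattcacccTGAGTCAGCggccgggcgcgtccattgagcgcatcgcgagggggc
Pir: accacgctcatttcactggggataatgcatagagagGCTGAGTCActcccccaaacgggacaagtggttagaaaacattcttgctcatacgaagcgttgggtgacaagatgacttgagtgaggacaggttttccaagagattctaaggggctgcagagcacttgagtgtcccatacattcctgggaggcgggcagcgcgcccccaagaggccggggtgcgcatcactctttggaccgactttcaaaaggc
Osgin1: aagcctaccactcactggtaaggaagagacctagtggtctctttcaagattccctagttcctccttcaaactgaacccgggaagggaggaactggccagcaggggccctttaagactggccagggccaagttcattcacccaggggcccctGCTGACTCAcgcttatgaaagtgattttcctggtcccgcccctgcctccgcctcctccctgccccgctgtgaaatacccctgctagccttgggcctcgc
Nfe2l2: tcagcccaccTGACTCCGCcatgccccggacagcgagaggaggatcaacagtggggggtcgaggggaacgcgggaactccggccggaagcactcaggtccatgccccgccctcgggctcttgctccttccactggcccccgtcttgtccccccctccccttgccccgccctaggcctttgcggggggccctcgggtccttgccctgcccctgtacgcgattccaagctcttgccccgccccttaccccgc
In Srxn1, TGAGTCAGC began at position -45 from the start site, with a further TGAGTCA at -102. In Pir the capitals begin at -214 and read TGACTCAGC on the opposite strand, and in Osgin1 they begin at -99 and read TGAGTCAGC on the opposite strand. Nfe2l2 had TGACTCCGC at -240. The windows of Nqo1 and Ephx1 held none of the 3 motifs, which says only that these letters are not in those windows.

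Signals were log2 values, and groups were compared by limma in 1 fit to all 8 arrays with Benjamini-Hochberg adjustment over the 11963 genes and a threshold of 0.05. Changes are given as log2 fold changes beside the standard error (SE), from 2 pools per group unless stated. No detection calls came with the values, so a dim gene may or may not be above background. All 9 hepatocyte markers checked against the liver label were among the genes tested. In whole-liver RNA, fewer cells of a type and less RNA per cell cannot be told apart. Most genes stood slightly lower in HFD+As, with a median over all genes of -0.10 against LFD and -0.13 against HFD. How far an array deviated from a gene's mean also went with the length of the gene in the genome (its span), with rank correlations across genes of -0.454 and -0.293 in the HFD+As arrays and between -0.136 and 0.346 in the other 6. Results were therefore also computed with that trend removed.

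Nfe2l2 itself was lower in the livers that had both the high-fat diet and arsenite. Its log2 signal was 10.81 and 10.79 in the HFD+As pools, 11.18 and 11.15 in HFD, 11.15 and 11.21 in LFD+As, and 11.19 and 11.13 in LFD. Both HFD+As pools lay below all 6 others, and the 6 others lay between 11.13 and 11.21. Low HFD+As pools were common: 41.4%, 45.8% and 43.8% of all genes had both below the LFD, HFD and LFD+As pools, in that order. Nfe2l2 fell by 0.36 against LFD (SE 0.11, adjusted p = 0.0393) and by 0.38 against LFD+As (SE 0.11, adjusted p = 0.0423). Against HFD it stood at -0.37 (SE 0.11, adjusted p = 0.0682), which did not pass. In LFD+As against LFD it stood at 0.02 (95% interval -0.21 to 0.26), and in HFD against LFD at 0.01 (-0.23 to 0.24). The call against LFD was lost without 6 of the 8 arrays in turn, at values between -0.39 and -0.34; it held without either HFD array. The call against LFD+As held without either HFD array and was lost without any other single array, at values between -0.41 and -0.35. With the gene-span trend removed the changes were -0.22 (adjusted p = 0.149) against LFD and -0.24 (adjusted p = 0.154) against LFD+As.

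**Figure D1:**
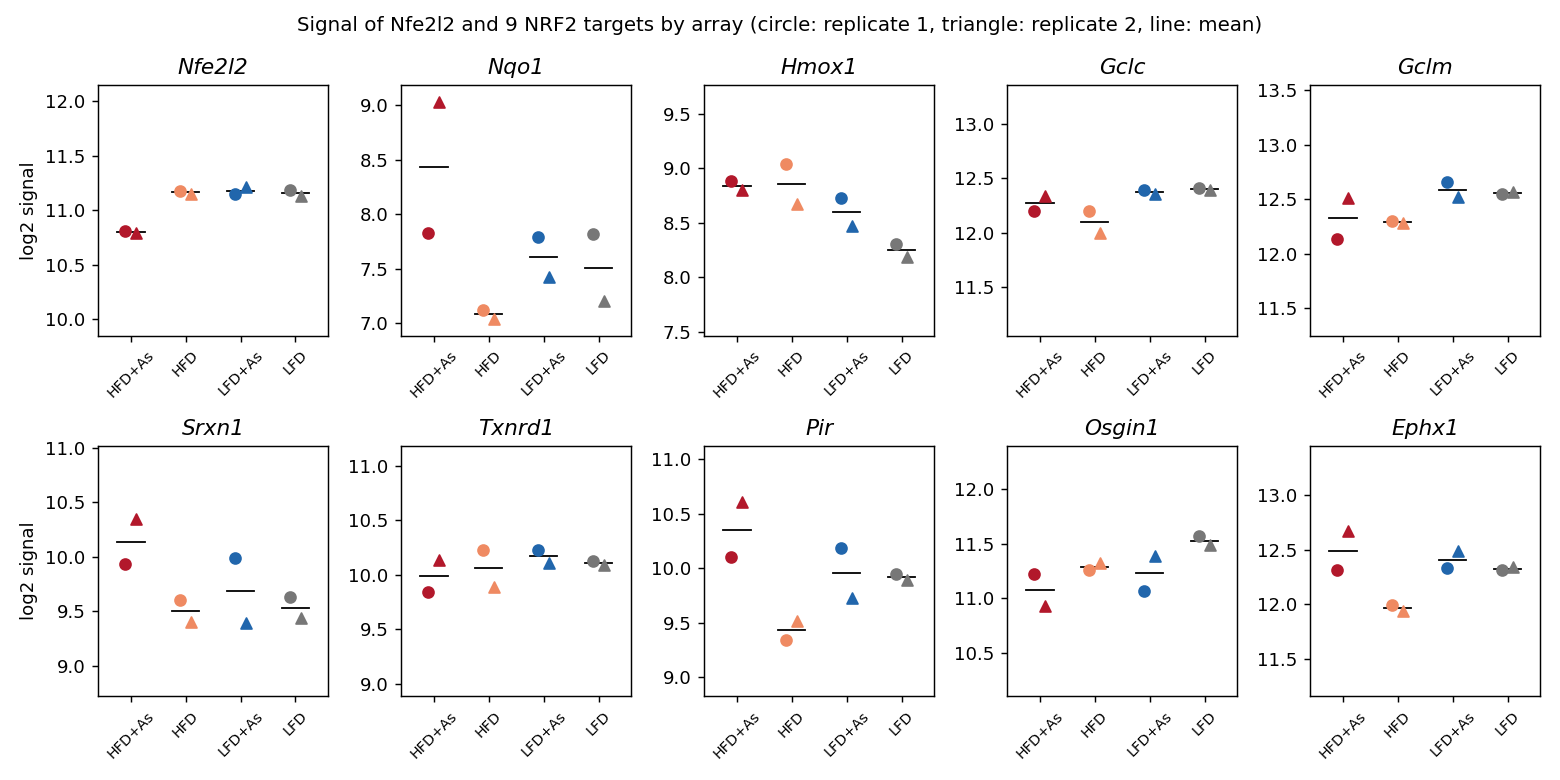
Log2 signal (vertical axis, the same height of scale in each panel) of each member in the 8 arrays, by group (horizontal axis: HFD+As, HFD, LFD+As, LFD). Circles are replicate 1, triangles replicate 2, and lines the group means; Nfe2l2 is lowest in both HFD+As pools, while Nqo1 has its highest value, 9.03, in HFD+As replicate 2.

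Nqo1, which encodes a quinone reductase and is the usual readout of NRF2 activity, had the widest range of the members. Its log2 signal was 7.83 and 9.03 in HFD+As, 7.12 and 7.04 in HFD, 7.79 and 7.42 in LFD+As, and 7.82 and 7.20 in LFD. The HFD values lay near the limit for testing (6.97) and the array medians over all clusters (7.08 to 7.18). Whether they stood above background is not known. HFD+As replicate 2 stood alone at the top, and HFD+As replicate 1 lay close to the higher pool of LFD+As and of LFD. By group mean the order was HFD+As (8.43), LFD+As (7.61), LFD (7.51) and HFD (7.08). Nqo1 rose by 1.35 in HFD+As against HFD (SE 0.29, adjusted p = 0.0345) and by 0.92 against LFD (SE 0.29, adjusted p = 0.0492), and stood at 0.82 against LFD+As (SE 0.29, adjusted p = 0.0878). The neighbours in the lower part of that order did not differ by the test, at 0.10 for LFD+As against LFD (SE 0.29, adjusted p = 1) and -0.43 for HFD against LFD (SE 0.29, adjusted p = 0.68). Leaving out HFD+As replicate 2 ended both calls, at 0.74 against HFD and 0.32 against LFD, while leaving out HFD+As replicate 1 gave 1.95 against HFD and 1.52 against LFD. The call against HFD was also lost without HFD replicate 1 (1.39) and without either LFD array (1.35), and the call against LFD without LFD replicate 1 (1.23) or LFD replicate 2 (0.61). With the gene-span trend removed the values were 1.46 against HFD (adjusted p = 0.0791) and 0.99 against LFD (adjusted p = 0.0701).

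Hmox1, the inducible heme oxygenase that opens heme to biliverdin, iron and carbon monoxide, was higher on the high-fat diet on average over both waters. Within the high-fat diet it stood level with or without arsenite. Its log2 signal was 8.88 and 8.80 in HFD+As, 9.04 and 8.67 in HFD, 8.73 and 8.47 in LFD+As, and 8.31 and 8.19 in LFD. Both LFD pools lay below all 6 others, and the HFD+As and HFD pools overlapped. LFD+As replicate 1 (8.73) was above HFD replicate 2 (8.67). Hmox1 rose by 0.59 in HFD+As against LFD (SE 0.14, adjusted p = 0.0163), and by 0.42 with the high-fat diet over both waters (4 arrays against 4, SE 0.10, adjusted p = 0.0277). HFD alone stood at 0.60 above LFD (SE 0.14, adjusted p = 0.1) and LFD+As at 0.35 (SE 0.14, adjusted p = 1), neither of which passed. Under arsenite the high-fat diet gave 0.24 in HFD+As against LFD+As (SE 0.14, adjusted p = 0.302), which did not pass either. Within the high-fat diet, arsenite gave -0.02 (95% interval -0.32 to 0.29, adjusted p = 0.948). The call in HFD+As against LFD was lost without LFD replicate 1 (0.64), LFD replicate 2 (0.53) or HFD+As replicate 1 (0.55). The call over both waters was lost without LFD replicate 1 (0.45), LFD replicate 2 (0.39), LFD+As replicate 2 (0.36) or HFD+As replicate 1 (0.40). Hmox1 is also well expressed by macrophages. In HFD against LFD 1232 of the 11963 genes had an unadjusted p under 0.05. Of 12 Kupffer cell and macrophage markers, 10 were positive there, with 0 called and 5 at that unadjusted p. Their summed signal was 13.84 and 13.78 in HFD, against 13.62 and 13.57 in LFD, on the log2 scale. In HFD+As against LFD 5 of these 12 markers were positive, and the summed signal was 13.62 and 13.31 in HFD+As. Over all genes 3.59% were called higher there and 12.4% lower. Marco was called higher (0.54, adjusted p = 0.00997) and Csf1r lower (-0.66, adjusted p = 0.0283). The call of Marco was lost without LFD replicate 2 (0.46) or HFD+As replicate 1 (0.53), and that of Csf1r without any 1 of the LFD and HFD+As arrays (-0.75 to -0.57) or with the span trend taken out (-0.54, adjusted p = 0.0758). The part of these cells in the Hmox1 values was not tested.

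The subunits of glutamate-cysteine ligase, which makes the first and rate-limiting step of glutathione synthesis, were not called in any of the 8 comparisons. Gclc, the catalytic subunit, had 12.20 and 12.34 in HFD+As, 12.20 and 12.00 in HFD, 12.39 and 12.35 in LFD+As, and 12.41 and 12.39 in LFD. Gclm, the modifier subunit, had 12.14 and 12.51 in HFD+As, 12.30 and 12.28 in HFD, 12.66 and 12.52 in LFD+As, and 12.55 and 12.57 in LFD. For both genes all 4 pools on the high-fat diet lay below all 4 pools on the low-fat diet, as in 3.74% of all genes. The gap was narrow: the nearest pools were HFD+As replicate 2 and LFD+As replicate 2, at 12.34 and 12.35 for Gclc and 12.51 and 12.52 for Gclm. Over both waters the high-fat diet gave -0.20 for Gclc (SE 0.08, adjusted p = 0.156) and -0.27 for Gclm (SE 0.09, adjusted p = 0.0945), neither past the threshold. Arsenite within the high-fat diet gave 0.17 for Gclc (95% interval -0.08 to 0.43) and 0.04 for Gclm (-0.25 to 0.32). On the low-fat diet it gave -0.03 for Gclc (-0.29 to 0.22) and 0.03 for Gclm (-0.26 to 0.31).

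Of the thiol repair genes, Srxn1 stood highest in HFD+As and Txnrd1 showed no called change. Srxn1 encodes sulfiredoxin, which restores over-oxidized peroxiredoxins, and had 9.93 and 10.35 in HFD+As, 9.60 and 9.40 in HFD, 9.99 and 9.39 in LFD+As, and 9.63 and 9.44 in LFD. Both HFD+As pools lay above the HFD and LFD pools, but LFD+As replicate 1 was higher than HFD+As replicate 1. Srxn1 rose by 0.61 in HFD+As against LFD (SE 0.19, adjusted p = 0.0425) and stood at 0.64 against HFD (SE 0.19, adjusted p = 0.0671) and 0.45 against LFD+As (SE 0.19, adjusted p = 0.133). The call against LFD was lost without LFD replicate 1 (0.70), LFD replicate 2 (0.51), HFD+As replicate 1 (0.81) or HFD+As replicate 2 (0.40). Removal of the gene-span trend also ended that call, at 0.60 (adjusted p = 0.0722). The value of 0.64 against HFD passed without either LFD+As array (adjusted p = 0.0358 both times), and against LFD+As it was 0.75 and passed without LFD+As replicate 1. Txnrd1, the cytosolic thioredoxin reductase, had 9.84 and 10.14 in HFD+As, 10.23 and 9.89 in HFD, 10.23 and 10.11 in LFD+As, and 10.13 and 10.09 in LFD. Its pools overlapped between groups in every pairwise comparison, and its values were -0.12 (95% interval -0.42 to 0.19) in HFD+As against LFD and -0.06 (-0.37 to 0.24) against HFD.

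Pir and Ephx1 were the other members raised by arsenite within the high-fat diet. Pir, which encodes the iron-binding nuclear protein pirin, had 10.10 and 10.61 in HFD+As, 9.34 and 9.52 in HFD, 10.19 and 9.73 in LFD+As, and 9.95 and 9.89 in LFD. Both HFD pools were below all 6 others, and HFD+As replicate 2 was above all others. Pir rose by 0.93 in HFD+As against HFD (SE 0.17, adjusted p = 0.0252), and stood at 0.44 against LFD (SE 0.17, adjusted p = 0.104) and -0.49 in HFD against LFD (SE 0.17, adjusted p = 0.334). The call was lost without HFD replicate 1 (0.84) or HFD+As replicate 2 (0.68), and with the gene-span trend removed Pir was also called against LFD, at 0.69 (adjusted p = 0.0416). Ephx1, the microsomal epoxide hydrolase, had 12.31 and 12.67 in HFD+As, 11.99 and 11.94 in HFD, 12.33 and 12.49 in LFD+As, and 12.31 and 12.34 in LFD. Again both HFD pools were the lowest of the 8, and HFD+As replicate 1 was level with the low-fat pools. Ephx1 rose by 0.53 in HFD+As against HFD (SE 0.13, adjusted p = 0.0482) and stood at 0.17 against LFD (SE 0.13, adjusted p = 0.433). That call was lost without any 1 of the 8 arrays, at values from 0.35 (HFD+As replicate 2 left out) to 0.71 (HFD+As replicate 1 left out). Once the trend with gene span was taken out, it was 0.69 (adjusted p = 0.0523).

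Osgin1, a target of NRF2 whose product is linked to growth inhibition under oxidative stress, moved opposite to the other called targets. It had 11.22 and 10.93 in HFD+As, 11.26 and 11.32 in HFD, 11.07 and 11.39 in LFD+As, and 11.57 and 11.49 in LFD. Both LFD pools were above all 6 others. Osgin1 fell by 0.45 in HFD+As against LFD (SE 0.14, adjusted p = 0.0428), and stood at -0.29 in LFD+As (SE 0.14, adjusted p = 1) and -0.23 in HFD (SE 0.14, adjusted p = 0.604) against LFD. The call was lost without LFD replicate 1 (-0.41), LFD replicate 2 (-0.49), HFD+As replicate 1 (-0.59) or HFD+As replicate 2 (-0.30), and with the gene-span trend removed the change was -0.35 (adjusted p = 0.132).

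**Figure D2:**
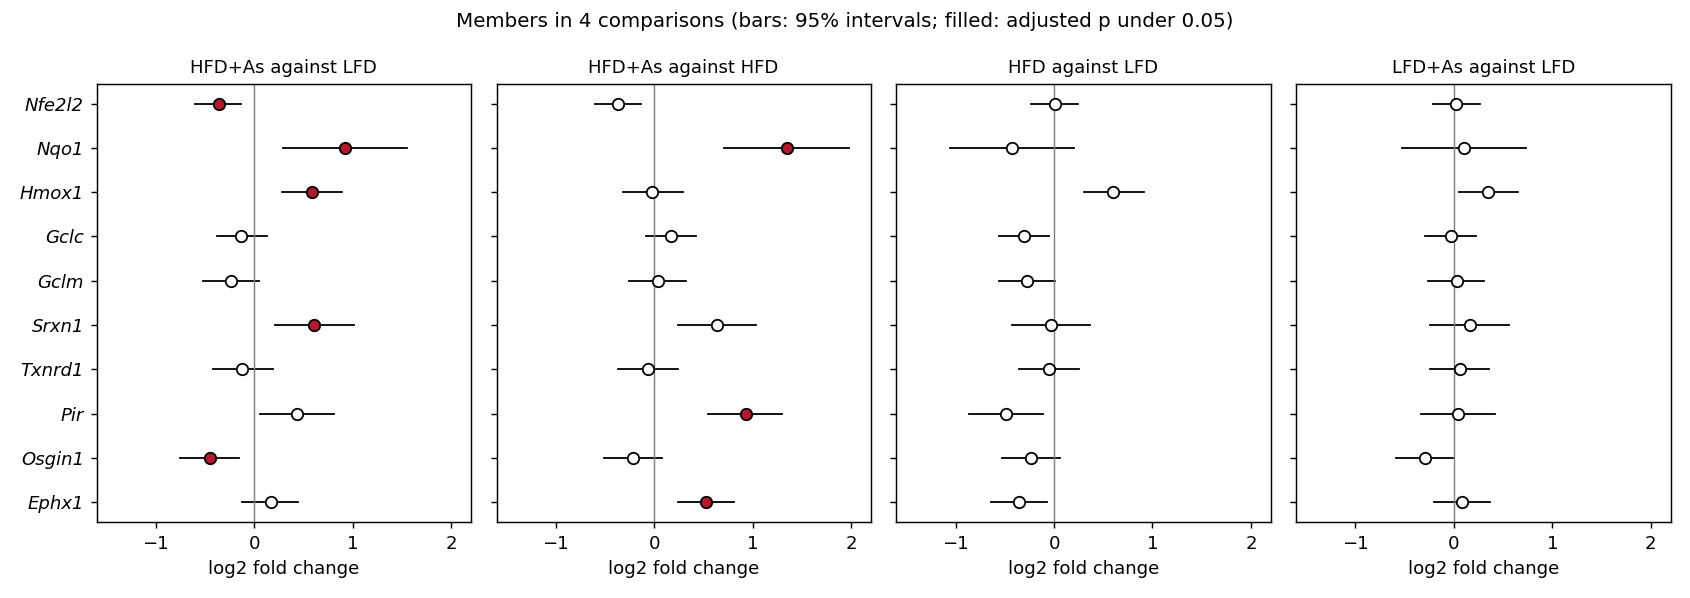
Log2 fold change (horizontal axis) of each member (rows) in 4 comparisons, with 95% intervals of the limma fit. Filled points passed an adjusted p of 0.05: Nfe2l2, Nqo1, Hmox1, Srxn1 and Osgin1 in HFD+As against LFD, and Nqo1, Pir and Ephx1 in HFD+As against HFD.

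Counted together, 5 of the 10 members were called in HFD+As against LFD, 3 higher and 2 lower, where 16% of all tested genes were called (3.59% higher and 12.4% lower). Against HFD, the HFD+As pools had 3 members called, all higher, where 3.63% of genes were called (0.376% higher and 3.25% lower). Nfe2l2 was the 1 member called in HFD+As against LFD+As, where 10.3% of genes were called (1.82% higher and 8.43% lower). Limma called 0 members in LFD+As against LFD, where 0.0669% of all genes were called (0.0251% higher and 0.0418% lower). It called 0 in HFD against LFD, where 0.46% of all genes were called (0.343% higher and 0.117% lower). At an unadjusted p under 0.05 stood 1 member and 401 of the 11963 genes in LFD+As against LFD. In HFD against LFD 4 members and 1232 genes did so. The median member stood at 0.02 in HFD+As against LFD beside -0.10 for all genes, at 0.11 against HFD beside -0.13, at 0.05 in LFD+As against LFD beside -0.01, and at -0.25 in HFD against LFD beside 0.01. Comparisons that share the LFD, HFD or HFD+As arrays are not independent of each other.

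The pools of 2 groups could also lie apart without a call, which is common with 2 pools a side. The share of all genes with the pools of a group beyond all 6 others was not computed. In HFD against LFD the HFD pools were below both LFD pools for 6 members (Nqo1, Gclc, Gclm, Pir, Osgin1 and Ephx1), where 16.5% of all genes were, and above them for Hmox1 alone, where 21.7% were. In HFD+As against LFD 4 members lay apart higher (13.5% of all genes) and 4 lower (41.4%). Against HFD, 5 lay apart higher in HFD+As (10.7%) and 2 lower (45.8%). The 5 were Nqo1, Gclc, Srxn1, Pir and Ephx1, and the 2 were Nfe2l2 and Osgin1. Against LFD+As, 2 lay apart higher in HFD+As (15.6%) and 3 lower (43.8%), and in LFD+As against LFD 1 higher (12.7%) and 2 lower (15.8%). Over both diets 0 of the 10 members had all 4 arsenite pools apart from the 4 others, where 0.41% of genes did so higher and 2.21% lower. Over both waters 0 lay apart higher (4.85%), and Gclc and Gclm were the 2 that lay apart lower (3.74%).

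Whether arsenite acted differently on the 2 diets was put to the interaction, the arsenite effect on the high-fat diet minus that on the low-fat diet. Limma called 0 members and 0% of all genes, with 4 members and 1659 genes at an unadjusted p under 0.05. Pir had the smallest p of the members, at 0.89 (SE 0.25, adjusted p = 0.208), built from 0.93 on the high-fat and 0.04 on the low-fat diet. Nqo1 stood at 1.25 (SE 0.41, adjusted p = 0.264), Ephx1 at 0.44 (SE 0.19, adjusted p = 0.328) and Nfe2l2 at -0.39 (SE 0.15, adjusted p = 0.309). The other 6 members had adjusted p between 0.42 and 0.985. Over both diets (4 arrays against 4) limma called 0 members for arsenite, where 0.568% of genes were called (0.125% higher and 0.443% lower). At an unadjusted p under 0.05 stood 6 members and 1847 of the 11963 genes. The largest change of these members was Nqo1 at 0.72 (SE 0.21, adjusted p = 0.147), followed by Pir at 0.48 (SE 0.12, adjusted p = 0.107) and Srxn1 at 0.40 (SE 0.13, adjusted p = 0.201). Over both waters Hmox1 was the 1 member called for the high-fat diet, where 7.65% of genes were called (2.98% higher and 4.66% lower).

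Of the 10 members, 7 stood higher in the second HFD+As pool than in the first. Replicate 2 exceeded replicate 1 by 1.20 for Nqo1, 0.50 for Pir, 0.42 for Srxn1, 0.37 for Gclm, 0.36 for Ephx1, 0.30 for Txnrd1 and 0.14 for Gclc. Nfe2l2 (-0.01), Hmox1 (-0.08) and Osgin1 (-0.29) were not higher there. Over all tested genes the median of this difference was 0.01 and 52.4% of genes were higher in replicate 2. The differences of Nqo1 and Pir lay at percentiles 99.9 and 98.5 of all genes, and that of Osgin1 at percentile 7.29. The 2 pools are different sets of 5 mice from the same group, and a difference between them has no replicate check.

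**Figure D3:**
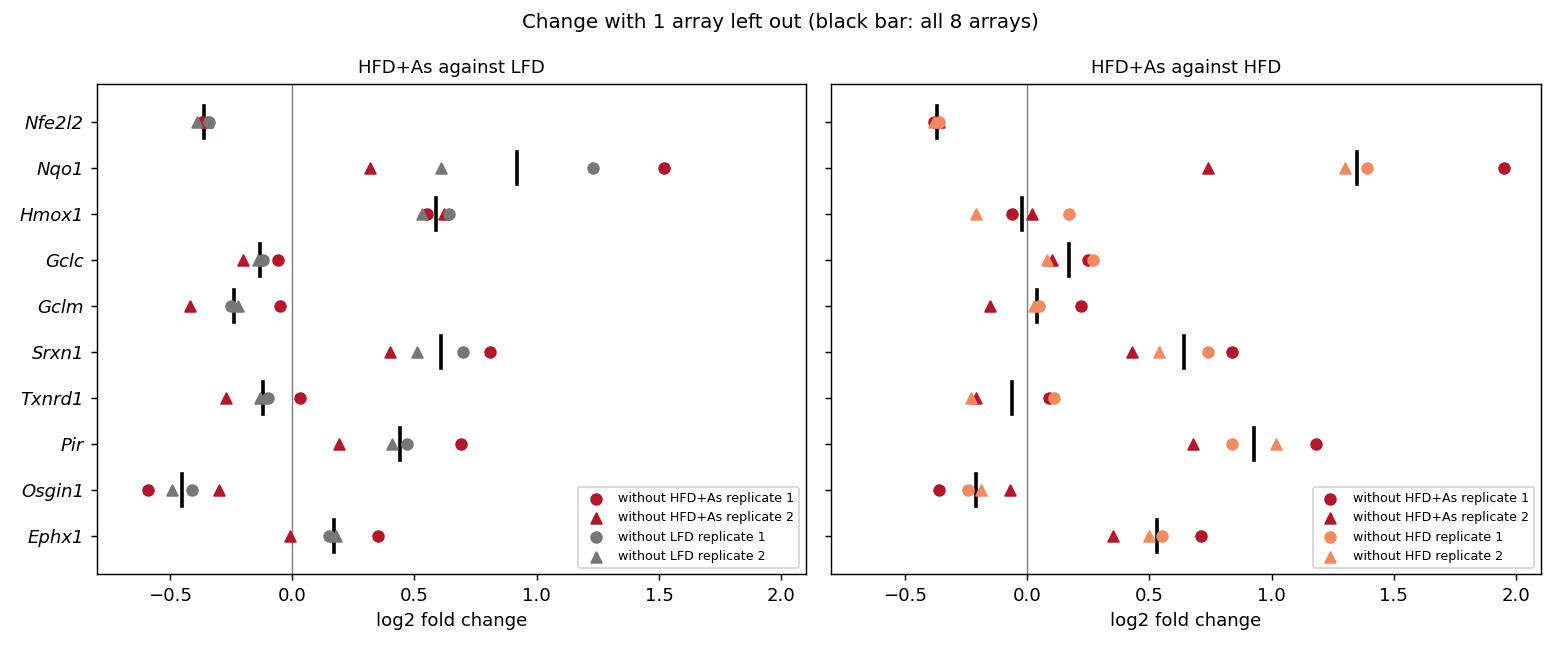
Log2 fold change (horizontal axis) of each member (rows) in HFD+As against LFD and against HFD, with all 8 arrays (black bar) and without 1 array of the 2 groups compared (points). Nqo1 spreads from 0.32 to 1.52 against LFD and from 0.74 to 1.95 against HFD, whereas Nfe2l2 stays between -0.39 and -0.34 and between -0.38 and -0.36.

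Other genes of the pathway were read from 7 lists of 62 genes, of which 54 were in the table and 50 were tested. In HFD+As against LFD 4 of the 50 were called higher and 4 lower, where 3.59% of all genes were called higher, 12.4% lower and 16% in all. The lists' median there was -0.08, beside -0.10 for all genes. Against HFD, 3 were higher and 1 lower in HFD+As (0.376% and 3.25% of all genes), and against LFD+As 1 was higher and 2 lower (1.82% and 8.43%). In LFD+As against LFD and in HFD against LFD limma called 0 of the 50, with 1 and 10 at an unadjusted p under 0.05. Of all 11963 genes, 401 and 1232 had such a p in the same order.

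Regulators and partners of NRF2 included 3 of 11 tested genes that were called lower in HFD+As against LFD and 0 called higher, where 12.4% of all genes were called lower and 3.59% higher. The list's median was -0.23, beside -0.10 for all genes. Gsk3b, the kinase that marks NRF2 for a second route of destruction, fell by 0.66 (SE 0.14, adjusted p = 0.0108), and Btrc, the ligase subunit that reads this mark, by 0.42 (SE 0.12, adjusted p = 0.0276). Nfe2l1, the related factor NRF1 that serves proteasome and redox genes, fell by 0.43 (SE 0.13, adjusted p = 0.036), and also by 0.54 against HFD (adjusted p = 0.0414) and by 0.55 against LFD+As (adjusted p = 0.0247). Its log2 signal was 9.96 and 10.10 in HFD+As, 10.68 and 10.46 in HFD, 10.47 and 10.70 in LFD+As, and 10.50 and 10.43 in LFD. As for Nfe2l2, both HFD+As pools were below all 6 others. Against LFD, HFD and LFD+As taken singly, 41.4%, 45.8% and 43.8% of all genes had both HFD+As pools below. Gsk3b was also called lower against LFD+As, by 0.69 (SE 0.14, adjusted p = 0.0198). With the gene-span trend removed Gsk3b stood at -0.39 (adjusted p = 0.062), Btrc at -0.15 (adjusted p = 0.4) and Nfe2l1 at -0.38 (adjusted p = 0.0626) against LFD. All 3 calls against LFD were lost without LFD replicate 1 (-0.59 for Gsk3b, -0.42 for Btrc and -0.40 for Nfe2l1) or HFD+As replicate 1 (-0.46, -0.50 and -0.36 in the same order). Those of Btrc (-0.42) and Nfe2l1 (-0.47) were also lost without LFD replicate 2, and that of Btrc without HFD+As replicate 2 (-0.34). Against HFD the call of Nfe2l1 was lost without HFD replicate 1 (-0.43), HFD+As replicate 1 (-0.47), HFD+As replicate 2 (-0.61) or either LFD array (-0.54), and with the span trend taken out (-0.44, adjusted p = 0.124). Against LFD+As both calls were lost without LFD+As replicate 2 (-0.44 for Nfe2l1 and -0.69 for Gsk3b) or HFD+As replicate 1 (-0.48 and -0.49 in the same order). They were also lost there with the span trend taken out, at -0.50 for Nfe2l1 (adjusted p = 0.0595) and -0.44 for Gsk3b (adjusted p = 0.0723).

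Among the other glutathione and thioredoxin genes all 6 tested were positive in HFD+As against LFD and 3 were called higher, where 3.59% of all genes were. The list's median was 0.32, beside -0.10 for all genes. Gss, glutathione synthetase, rose by 0.69 (SE 0.19, adjusted p = 0.0277), Glrx, glutaredoxin, by 0.68 (SE 0.15, adjusted p = 0.0112) and Prdx1, peroxiredoxin 1, by 0.36 (SE 0.11, adjusted p = 0.0431). Glrx had 10.83 and 10.78 in HFD+As, 9.86 and 10.18 in HFD, 10.52 and 10.15 in LFD+As, and 10.23 and 10.03 in LFD. Both HFD+As pools of Glrx were above all 6 others. Against LFD, HFD and LFD+As taken singly, 13.5%, 10.7% and 15.6% of all genes had both HFD+As pools above. Glrx rose by 0.78 against HFD as well (SE 0.15, adjusted p = 0.0256). The 3 calls against LFD were lost without LFD replicate 1 (0.79 for Gss, 0.77 for Glrx and 0.37 for Prdx1) or LFD replicate 2 (0.58, 0.58 and 0.34 in the same order). Those of Glrx (0.65) and Prdx1 (0.40) were also lost without HFD+As replicate 1, those of Gss (0.41) and Prdx1 (0.32) without HFD+As replicate 2, and that of Prdx1 without either LFD+As array (0.36). The call of Glrx against HFD was lost without HFD replicate 1 (0.63) or HFD+As replicate 1 (0.76).

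Blvrb, a biliverdin and flavin reductase gene of the heme and iron list, was called in more comparisons than any member. It had 11.81 and 12.25 in HFD+As, 11.12 and 11.37 in HFD, 11.40 and 11.37 in LFD+As, and 11.23 and 11.07 in LFD. Both HFD+As pools were the highest of the 8. Against LFD, HFD and LFD+As taken singly, 13.5%, 10.7% and 15.6% of all genes had both HFD+As pools above. Blvrb rose by 0.88 against LFD (SE 0.15, adjusted p = 0.00494), by 0.79 against HFD (SE 0.15, adjusted p = 0.0254) and by 0.64 against LFD+As (SE 0.15, adjusted p = 0.025). The call against LFD held without each of the 8 arrays in turn, at values between 0.66 and 1.10. The call against HFD was lost without HFD replicate 1 (0.66) or HFD+As replicate 2 (0.57), and the call against LFD+As without LFD+As replicate 1 (0.66), LFD+As replicate 2 (0.63) or HFD+As replicate 2 (0.42). Removal of the gene-span trend ended the call against LFD+As (0.73, adjusted p = 0.054) and kept those against LFD (0.97) and HFD (0.92). Blvrb was also called higher for arsenite over both diets (0.51) and for the high-fat diet over both waters (0.37). The first held without 3 of the 8 arrays in turn (values 0.40 to 0.62), the second without 2 (0.26 to 0.48). Span removal ended both, at 0.58 (adjusted p = 0.0696) and 0.40 (adjusted p = 0.0556). The other 6 tested genes of heme and iron handling were not called in HFD+As against LFD or HFD.

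Of the other 4 lists, NADPH supply had 0 genes called in any of the 8 comparisons. Aox1, an aldehyde oxidase, rose by 0.75 in HFD+As against HFD (SE 0.13, adjusted p = 0.0179) and by 0.56 with arsenite over both diets (SE 0.09, adjusted p = 0.0237). Its 4 arsenite pools (10.42 and 10.60 in HFD+As, 10.57 and 10.54 in LFD+As) all lay above its 4 pools on plain water (9.91 and 9.60 in HFD, 10.24 and 10.15 in LFD). Over both diets 0.41% of all genes lay apart higher in this way, and 0.125% were called higher. Of the 50 tested genes of the lists, 2 were called higher there. The call of Aox1 against HFD was lost without HFD+As replicate 1 (0.84). Its call over both diets was lost without LFD replicate 1 (0.58), LFD replicate 2 (0.53), LFD+As replicate 1 (0.55) or HFD+As replicate 2 (0.51). Gstm6, a mu-class glutathione S-transferase, fell by 0.91 in HFD+As against LFD (SE 0.17, adjusted p = 0.00592), while the other 8 transferases tested were not called; probes of this family may bind close relatives. The call of Gstm6 was lost without LFD replicate 1 (-0.80) or HFD+As replicate 1 (-0.88). Pgd (-0.43, adjusted p = 0.0763) and Me1 (-0.55, adjusted p = 0.105), which supply NADPH, and the efflux pump gene Abcc2 (-0.36, adjusted p = 0.0588) did not pass in HFD+As against LFD. Over both waters the high-fat diet lowered Abcc2 by 0.36 (SE 0.09, adjusted p = 0.028) and the carboxylesterase gene Ces1g by 0.64 (SE 0.16, adjusted p = 0.0308). Both calls were lost without any 1 of LFD replicate 1, LFD replicate 2, LFD+As replicate 2, HFD replicate 2 and HFD+As replicate 1, at -0.37 to -0.30 for Abcc2 and -0.71 to -0.43 for Ces1g. Removal of the gene-span trend also ended both, at -0.26 for Abcc2 (adjusted p = 0.0587) and -0.57 for Ces1g (adjusted p = 0.0557).

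**Figure D4:**
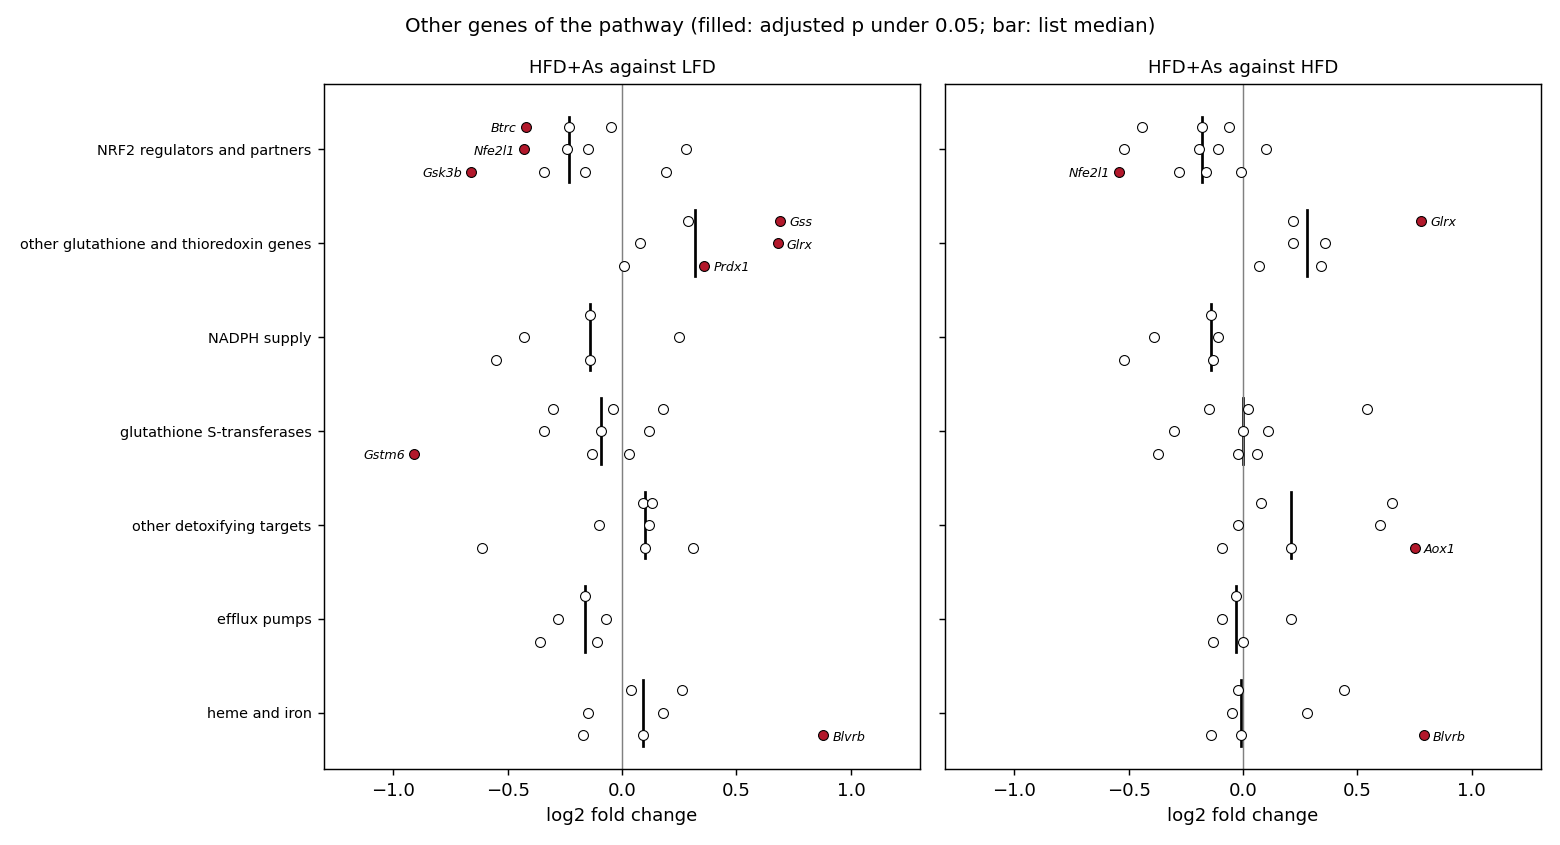
Log2 fold change (horizontal axis) of the 50 tested genes of the 7 pathway lists (rows) in HFD+As against LFD and against HFD; filled points passed an adjusted p of 0.05 and carry their names, and bars are list medians. The glutathione and thioredoxin genes have a median of 0.32 and the regulators one of -0.23 against LFD.

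Genes outside the members whose pattern over the 8 arrays was closest to the members of widest range were also named. They were ranked by the root mean square difference of log2 values, each gene centred on its mean, among 11457 tested genes. The members themselves were left out as candidates, and Nqo1 and Pir correlated with each other at 0.91 (Pearson) over the 8 arrays. Closest to Nqo1 outside the members were Rbm3, an RNA-binding protein gene induced by cold (0.313), Cyp4a31, a fatty acid omega-hydroxylase gene (0.335), and Blvrb (0.336). Closest to Pir were Cyp4a10 (0.115), of the same hydroxylase family, Rbm3 (0.130) and Bnip3, a mitophagy receptor gene (0.137). Closest to Srxn1 were the non-coding RNA gene Mirt2 (0.126), Nol3 (0.135), an apoptosis repressor gene, and Zwint (0.138), a kinetochore gene. Cyp4a10 had 12.72 and 12.97 in HFD+As, 12.01 and 12.15 in HFD, 12.97 and 12.44 in LFD+As, and 12.60 and 12.48 in LFD, and like Pir was lowest in both HFD pools and higher in replicate 1 than in replicate 2 of LFD+As. These are descriptions over 8 arrays with no test.

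**Figure D5:**
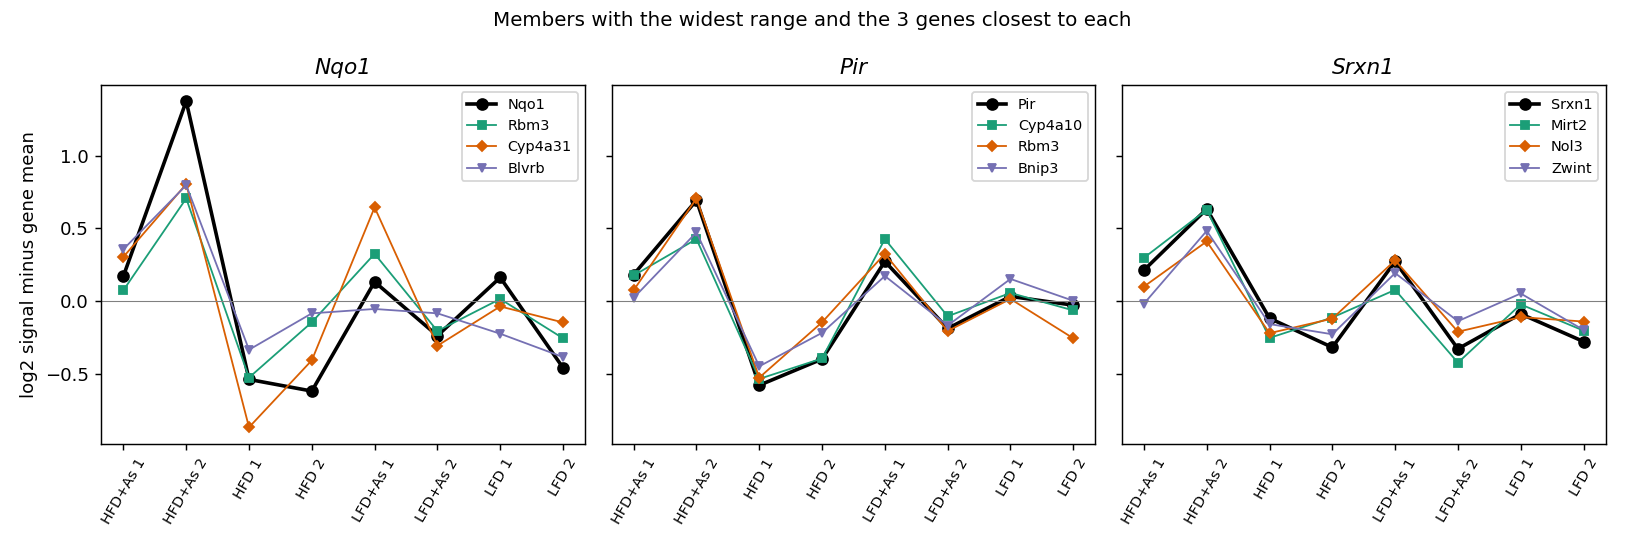
Log2 signal minus each gene's mean (vertical axis) in the 8 arrays (horizontal axis) for Nqo1, Pir and Srxn1 (black) and the 3 non-member genes closest to each (colours). In all 3 panels HFD+As replicate 2 is the highest array of the member and of its neighbours, apart from Cyp4a10, whose LFD+As replicate 1 is as high.

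Markers of other cells also moved in the comparisons with HFD+As. Against HFD the median of all genes was -0.13, and 3.25% of genes were called lower. In that comparison 1 of 12 macrophage markers was positive, and Adgre1 (-0.61, adjusted p = 0.0403) and Cd5l (-0.59, adjusted p = 0.0368) were called lower. Both calls held without HFD replicate 2 or either LFD+As array and were lost without any other single array, at -0.70 to -0.45 for Adgre1 and -0.65 to -0.52 for Cd5l. Both were also lost with the span trend taken out, at -0.38 for Adgre1 (adjusted p = 0.184) and -0.48 for Cd5l (adjusted p = 0.125). In HFD+As against LFD the median of all genes was -0.10, with 12.4% of genes called lower and 3.59% higher. Of 6 sinusoidal endothelial markers 1 was positive there, and Stab2 (-0.91, adjusted p = 0.0042) and Kdr (-0.69, adjusted p = 0.0105) were called lower. Their summed log2 signal was 12.53 and 12.29 in HFD+As, 12.80 and 12.44 in HFD, 12.36 and 12.48 in LFD+As, and 12.56 and 12.41 in LFD. The neutrophil gene S100a9 rose by 0.81 in HFD+As against LFD (adjusted p = 0.00555), with 4 of the 6 neutrophil markers too dim to be tested. The hepatocyte gene Cps1 (-0.39) and the stellate cell gene Reln (-0.53) were also called lower against LFD, and with the span trend taken out they stood at -0.14 for Cps1 (adjusted p = 0.37) and -0.21 for Reln (adjusted p = 0.41). The call of Reln was lost without LFD replicate 1 (-0.50), LFD replicate 2 (-0.56) or HFD+As replicate 2 (-0.30). That of Cps1 was lost also without LFD replicate 2 (-0.38) or either LFD+As array (-0.39). Without LFD replicate 1 and without HFD+As replicate 1, taken in turn, Stab2 kept its call against LFD, and Kdr (-0.50 and -0.67), S100a9 (0.65 and 0.78) and Cps1 (-0.39 and -0.31) lost theirs. Hepatocyte markers summed to 16.87 and 16.91 in HFD+As, 17.02 and 16.93 in HFD, 16.96 and 17.01 in LFD+As, and 17.00 and 17.00 in LFD. The part of these shifts in the members' values was not tested.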

How the data were processed

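Liver RNA of 40 mice was measured on 8 Affymetrix arrays, each a pool of 5 mice per the labels' protocols. The authors deposited a log2 signal for every transcript cluster. The submitters' processing notes name Affymetrix Expression Console 1.0; how background was corrected, arrays normalized and probes summarized is not given in the sources used here. Arrays had medians between 7.08 and 7.18, were used as they are, and their number limits the precision.

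Gene names came from the platform annotation: 21789 clusters had 1 symbol, 1621 several and 12146 none. The cluster with the highest mean stood for its gene. The 60% of 19938 genes with the highest means (limit 6.97) entered limma (version 3.58.1, R version 4.3.3), in 1 fit of 4 group means (4 residual and 9.32 prior degrees of freedom), which was tested on simulated data. Group comparisons, the interaction and averages over diets and waters were contrasts of this fit. The members, the gene lists and the tests were chosen with earlier results of these data known. All 10 members were named. Each pathway list named up to 4 called genes per comparison with the largest change. Where none was called, it named up to 2 with the smallest p, as values only where the text needs them. Genes of closest pattern were the 3 of smallest root mean square difference for the 3 members of widest range. Members and predicted or unnamed symbols were left out as candidates there. Promoter sequences came from RefSeq (GRCm38.p6), and genomic spans from the same assembly's gene table.

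Alternatives were each array left out, the replicate number as a block, no filter, quantile normalization, median centring, limma with a variance trend, the mean of a gene's clusters, and removal of the trend with gene span by loess (span 0.5).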

Additional observations from a re-analysis of the deposited data

How the results depend on the processing

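No called change of a member turned its direction under quantile normalization, median centring or removal of the gene-span trend, but most calls lay near the threshold. The number of members called in HFD+As against LFD was 5, against 2 with the replicate block (Hmox1 and Srxn1), 1 with no filter and 1 with median centring (Hmox1 both times), and 2 with the gene-span trend removed (Hmox1, and Pir, which is not among the 5). With 1 array left out it lay between 0 and 5. Against HFD the number was 3, against 0 with no filter and 1 each with quantile normalization, median centring and the span trend removed (Pir each time). With 1 array left out it lay between 0 and 3, and the 3 without an LFD+As array were Nqo1, Pir and Srxn1, with Ephx1 lost. Against LFD+As it was 1 (Nfe2l2), against 0 with the replicate block, with no filter, with quantile normalization, with median centring or with the span trend removed. It lay between 0 and 1 with 1 array left out, the 1 being Nfe2l2 without an HFD array, Srxn1 without LFD+As replicate 1 and Nqo1 without HFD+As replicate 1. Over both waters it was 1 (Hmox1), against 0 with no filter, and between 0 and 2 with 1 array left out (Hmox1 and Gclm without HFD+As replicate 2). For arsenite over both diets it was 0, and between 0 and 2 with 1 array left out (Pir and Srxn1 without LFD+As replicate 2). With no filter 19938 genes shared the adjustment and the fold changes were unchanged; the cause of the other losses was not tested. In HFD+As against HFD the number of genes called over all genes was 434, against 29 with no filter, 104 with quantile normalization, 125 with median centring, 230 with the replicate block, 40 with the span trend removed, 25 without HFD replicate 1 and 24 without HFD+As replicate 1. In HFD+As against LFD it was 1909, against 1084 with no filter, 1013 with median centring, 1090 with the span trend removed, and between 206 and 2050 with 1 array left out. Removing the span trend moved the median of all genes by 0.10 against LFD and 0.12 against HFD. The labels do not say whether the replicate numbers pair pools of different groups. Differences between replicate 1 and 2 correlated across genes at between -0.217 and 0.179 from group to group, which cannot settle it. A group left with 1 array is assumed to vary like the others.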
